A study of Mus musculus with 2 samples.

Results

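Macrophage-rich tissue outside corpora lutea was mapped in 1 ovary section from a young female mouse. The beads of the section were gathered into square bins, and 89 bins with a high share of counts from 6 macrophage genes were compared with the 956 other bins outside luteal tissue. These 89 bins were 8.52% of the 1045 non-luteal bins and were drawn from 1306 bins in all with at least 500 counts. The data came from Slide-seq, in which a frozen section is placed on a surface of barcoded beads, each of known position, so that the mRNA over each bead is counted at its place. The section used here, replicate 3 of the young group, came from a C57BL6/J female of 2 months. A section of a C57BL6/J female of about 14 months, replicate 1 of the old group, served only for values side by side under the same rule. Per the labels' protocols, 4 cryosections of 10 µm from 2 females per age were taken in the sagittal plane at levels that showed several oocytes, and sections other than these 2 were not analysed here. Each age was 1 library of 1 animal, so no test was possible. Every 95% interval below covers counting error only, and no interval holds the spread between animals.

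Bins were chosen by measured values in 3 steps. The 261 bins with the highest share of the luteal genes Ptgfr, Sfrp4 and Akr1c18 were set aside as luteal. The remaining bins were ranked by their share of counts from C1qa, C1qb, C1qc, Csf1r, Tyrobp and Ms4a7, and of the 104 highest, 10% of the non-luteal bins, the 89 with at least 2 such counts were kept. The other 15 held a single count. The 89 bins held 278404 counts on 1301 beads, 6.64% of the counts outside luteal bins. The count per bin was 865 at the lowest, 2646 at the median and 8300 at the highest, against 502, 3286 and 29132 in the other non-luteal bins. The macrophage-rich bins were thus shallower at the median, while beads per bin were alike at medians of 14 and 15. A bin of 70 position units spanned 5.58 bead spacings, held many beads and could hold several cell types. Within a bin, more macrophages and more RNA per macrophage cannot be told apart.

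Tissue macrophages take up dead cells and debris, break them down in lysosomes and can show peptides to T cells on MHC class II molecules. C1qa, C1qb and C1qc encode the 3 chains of C1q, the recognition unit of the classical complement pathway, which tissue macrophages make locally. Csf1r is the receptor through which CSF1 and IL-34 keep macrophages alive, Tyrobp is the signalling adaptor of TREM2 and other myeloid receptors, and Ms4a7 encodes a membrane protein of macrophages. In the ovary, macrophages sit in the stroma, around follicles that degenerate (atresia) and in regressing corpora lutea, where they clear dying granulosa and luteal cells.

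Because many of the genes described below share regulators, short stretches of promoter are shown for genes whose counts were high in the macrophage-rich bins. The sequences are from RefSeq on GRCm38.p6 and were searched on both strands from 250 bases before to 50 bases after each gene start. For the myeloid factor PU.1 the letters GAGGAAGT (ACTTCCTC on the other strand) were searched. They stood in 1052 of 32851 promoters (3.20%) and in 4 of 33 promoters (12.1%) of 28 macrophage genes, those of C1qc, Cd53, Ctss and Pld4. The Y box CTGATTGG (CCAATCAG on the other strand), bound by NF-Y at MHC class II genes, stood in 4.10% of all promoters and in 3 of 8 of the MHC class II list, those of H2-Aa, H2-Eb1 and H2-Oa. The palindrome TCACGTGA, the core of the CLEAR element read by TFEB at lysosome genes, stood in 0.974% of all promoters and in 2 of 23 of the lysosome list, those of Ctsa and Ctsd. Capitals mark these letters in 5 stretches of 80 bases, printed 5′ to 3′ on the strand of the gene. A match is a description of the letters and shows no binding.
C1qc, chr4:136893066-136893145, minus strand: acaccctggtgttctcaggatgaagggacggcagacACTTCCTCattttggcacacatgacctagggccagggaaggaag
Ctss, chr3:95526714-95526793, plus strand: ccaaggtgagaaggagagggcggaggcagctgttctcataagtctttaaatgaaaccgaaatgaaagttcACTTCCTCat
H2-Aa, chr17:34287831-34287910, minus strand: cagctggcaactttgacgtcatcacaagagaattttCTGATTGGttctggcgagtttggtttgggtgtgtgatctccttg
H2-Eb1, chr17:34305769-34305848, plus strand: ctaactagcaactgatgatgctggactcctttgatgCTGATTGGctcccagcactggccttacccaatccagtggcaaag
Ctsd, chr7:142387883-142387962, minus strand: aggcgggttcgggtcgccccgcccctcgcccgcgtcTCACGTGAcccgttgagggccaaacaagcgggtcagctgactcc

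The values that chose the bins are given as a description only. Summed over the 89 bins, the 6 ranking genes gave 577 counts, with 2 in the lowest bin, 4 in the median bin and 30 in the highest. In 45 bins the ranking rested on 2 to 4 counts, in 15 of them on exactly 2, and 16 bins held 10 or more. The other non-luteal bins held 665 counts, of which 407 bins (42.6%) had at least 1 and none had more than 8. Ranking counts were therefore not confined to the bins chosen. The 261 luteal bins, left out by the rule, held 680 such counts at a median of 2 per bin. The share of ranking counts was 11.3 per 10000 counts in the lowest macrophage-rich bin, 16.7 at the median and 87.5 in the highest. At the threshold, the last bin inside had 3 counts of 2655 (11.3 per 10000) and the next bin outside with at least 2 counts had 3 of 2695 (11.1). C1qa gave 226 counts in the macrophage-rich bins and 262 in the others. C1qb gave 78 and 76, C1qc 76 and 97, Csf1r 52 and 57, Tyrobp 95 and 94, and Ms4a7 50 and 79. The genes of the 3 C1q chains lie side by side on chromosome 4, with C1qb at 136880126 to 136886200, C1qc at 136889801 to 136892936 and C1qa at 136895916 to 136898844 on GRCm38.

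**Figure D1:**
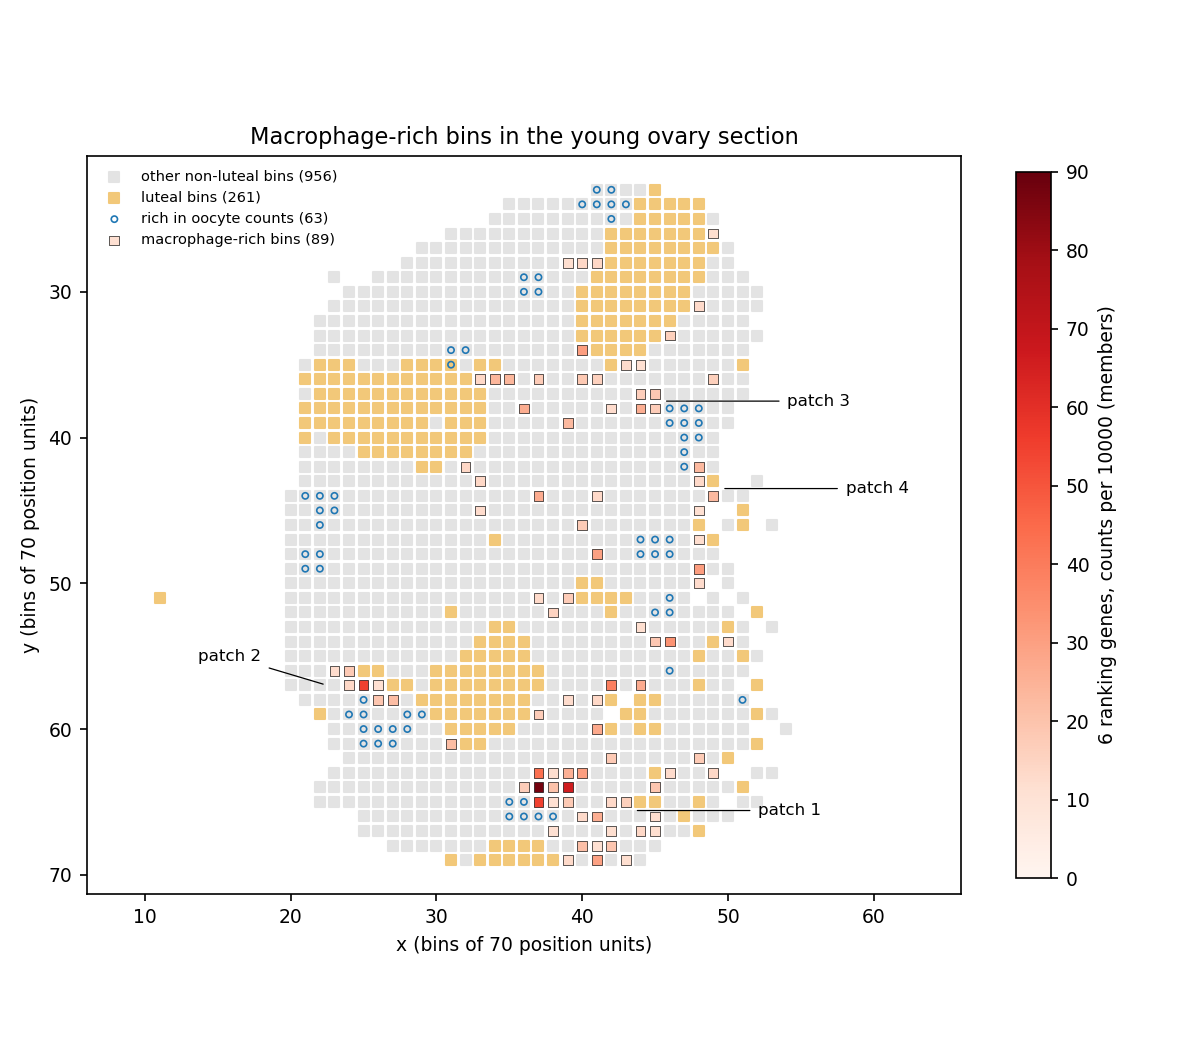
Map of the young section in bins of 70 position units (x and y axes in bins). Grey squares are the 956 other non-luteal bins, tan squares the 261 luteal bins, blue circles bins rich in oocyte counts, and framed squares the 89 macrophage-rich bins, coloured by counts of the 6 ranking genes per 10000. The 2 highest squares, at 87.5 and 66.2 per 10000, lie in patch 1 at high y, the next, at 54.8, lies in patch 2, and patches 2 to 4 are the other groups of at least 4 adjoining bins.

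Each set of ranking genes was also read in bins chosen without it. Ranked by the 3 C1q genes alone, 82 bins were taken, of which 63 were among the 89. In these bins Csf1r stood 7.91 times (95% interval 5.19 to 11.9) above the other non-luteal bins, Tyrobp 7.75 times (5.65 to 10.5) and Ms4a7 4.48 times (2.87 to 6.80). Ranked by Csf1r, Tyrobp and Ms4a7, 57 bins were taken, of which 41 were among the 89. There C1qa stood 7.65 times (6.25 to 9.32) above the others, C1qb 6.48 times (4.40 to 9.36) and C1qc 6.10 times (4.22 to 8.68). Each of the 6 genes was thus higher where the other 3 had been used to choose the bins.

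Macrophage genes that took no part in the choice were much higher in the macrophage-rich bins. A list of 37 such genes reached 4479 CPM there against 516 in the other non-luteal bins, a ratio of 8.67 (8.08 to 9.31). CPM are counts scaled to a common total of each set of bins. The list comprised 1247 counts in the 89 bins and 2023 in the 956 others. Of its 36 genes with any count, 32 had a ratio of at least 1.5. Sparse genes can pass that size on few counts, and the share over all genes with any count was not taken. Of the 15 with at least 50 counts in the 2 sets together, all 15 did, with a median ratio of 4.76. A minimum on the sum lets a gene pass through its counts in the macrophage-rich bins, so the 10 genes with 50 counts in the other bins alone were counted too, and 10 of 10 were at least 1.5-fold higher. Over the 9614 genes measured in the section, 11% were at least 1.5-fold higher and 22.2% at least 1.5-fold lower, and the median ratio was 0.938. Under the minimum in the other bins alone, 10.2% of 9407 genes were higher.

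Lyz2, the lysozyme of macrophages, gave 375 counts in the macrophage-rich bins and 327 in the far larger set of other bins, or 1347 against 83.5 CPM (ratio 16.1, interval 13.9 to 18.8). It shares sequence with Lyz1, so reads could be split between the pair. Ctss, cathepsin S, the protease that trims the invariant chain of MHC class II, stood at 1422 against 92.9 CPM (15.3, 13.2 to 17.7). Most counts of both genes lay in a minority of the bins. Lyz2 was counted in 59 of 89 bins, with a median of 1 and a maximum of 49, and in 218 of 956 others with a maximum of 6. Ctss was counted in 57 bins, with a median of 1 and a maximum of 54. The 10 highest bins held 58.7% of the Lyz2 counts and 60.1% of the Ctss counts, and the 2 sets of bins overlapped from 0 upwards.

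Mpeg1, the pore-forming perforin-2 of macrophages, followed at 8.69 (5.77 to 13) on 42 and 68 counts. Cd68, a lysosomal glycoprotein, stood at 6.64 on 17 and 36 counts, and Adgre1, which encodes the F4/80 antigen, at 6.03 on 18 and 42. The Fc receptor genes Fcer1g and Fcgr2b had ratios of 5.63 and 5.24. Aif1, which encodes IBA1, stood at 4.76, the inhibitory receptor gene Sirpa at 4.49 and Unc93b1, which carries Toll-like receptors to endosomes, at 4.20. Lcp1, the actin bundler of leukocytes, stood at 4.0. The mannose receptor gene Mrc1 stood at 2.93 on 26 and 125 counts, Rnase4 at 2.10 and the efferocytosis receptor gene Mertk at 2.04 with an interval of 0.937 to 3.98. These genes are sparse, and Cd68 was counted in only 10 of 89 bins.

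**Figure D2:**
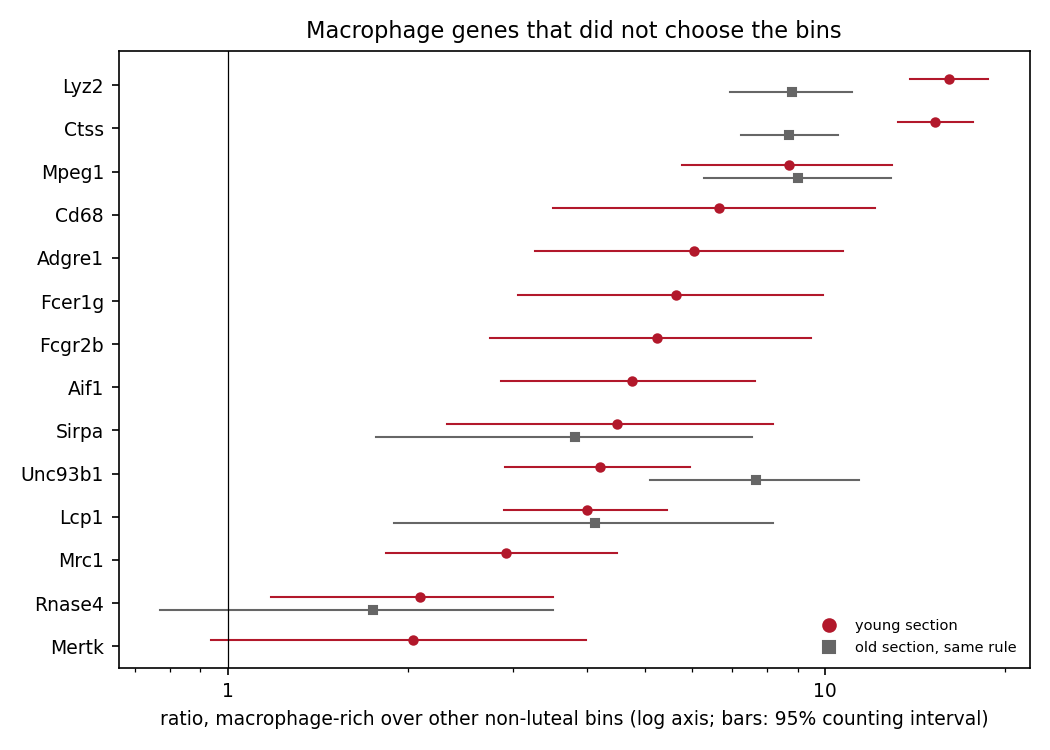
Ratio of summed counts, macrophage-rich over other non-luteal bins, on a log axis for 14 of the 15 macrophage genes outside the ranking with at least 50 counts (bars, 95% counting intervals). Red circles are the young section and grey squares the old section under the same rule where the gene had 50 counts there. Lyz2 and Ctss lie farthest right at 16.1 and 15.3, and the interval of Mertk reaches below 1.

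Genes of the list under 50 counts are given by their counts in macrophage-rich and other bins. Trem2, the lipid-sensing receptor that signals through Tyrobp, had 16 and 11 counts. Cybb, the catalytic subunit of the phagocyte NADPH oxidase, had 17 and 14, the integrin subunit gene Itgb2 12 and 12, Cd53 14 and 19, Cd84 13 and 18, and Fcgr3 13 and 22. Cx3cr1, the receptor of fractalkine, had 9 and 23. The macrophage-rich bins, with 6.64% of the counts compared, gave a far larger part of the counts of each of these genes. The exceptions were Cd14 at 0 and 16 counts, Cd163 at 0 and 3, Spi1 at 1 and 10 and Clec4n at 1 and 13.

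Genes used to tell macrophage states apart gave unlike values. The list of resident perivascular macrophages stood at 1.31 (1.2 to 1.42), but 545 of its 604 counts in the macrophage-rich bins were Gas6, a ligand of the TAM receptors that other cells also make, at a ratio of 1.24. Without Gas6 the list stood at 2.64 (1.96 to 3.49) on 59 and 315 counts. The scavenger receptor gene Stab1 stood at 3.28 (1.94 to 5.32). Lyve1 had 1 count in the macrophage-rich bins and 30 in the others, Timd4 0 and 12, Folr2 0 and 5, and Pf4 7 and 29. Lyve1, Timd4 and Folr2 were thus at or near 0 in the macrophage-rich bins. They were too sparse to compare, with intervals of the ratio that reach up to 2.82, 5.06 and 15.4. Genes of the monocyte list went apart. Ccr2, the chemokine receptor of inflammatory monocytes, had 9 and 17 counts, a ratio of 7.45 (2.93 to 17.7). Plac8, which other cells also express, had 4 and 118 (0.477, 0.128 to 1.25). The list as a whole stood at 1.30 (0.853 to 1.90) on 29 counts, most of them Gsr and Plac8, so its sum says little of Ccr2. Of the ligands that keep macrophages alive, Csf1 had 1 and 24 counts and Il34 1 and 12, too few to compare (0.782 for the 2 summed, 0.0912 to 3.04).

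Antigen presentation by MHC class II was the second group. The list stood at 1257 against 162 CPM, a ratio of 7.76 (6.79 to 8.85) on 350 and 635 counts. All 4 of its genes with at least 50 counts were higher, at a median of 7.94. Of the 9 with any count 8 had a ratio of at least 1.5, again without a share over all such genes. H2-Oa passed on 1 count against 2. H2-Ab1 and H2-Aa, the beta and alpha chains of I-A, stood at 8.29 (6.31 to 10.8) and 7.14 (4.55 to 11). H2-Eb1, the beta chain of I-E, stood at 8.18 (5.97 to 11.1) and Cd74, the invariant chain, at 7.71 (6.22 to 9.52). H2-DMb1, part of the peptide-loading catalyst, had 12 and 18 counts, and Ciita, the coactivator that governs the whole group, 5 and 5. At least 1 count of the list was found in 59 of 89 macrophage-rich bins (66.3%) and 339 of 956 others (35.5%). The counts were concentrated, with 60.3% of those in macrophage-rich bins lying in 10 bins. The size of the ratio moved with place and with the choice of bins. It was 3.40 without the quadrant of low x and high y, 13.9 without that of high x and high y, 3.91 against adjoining bins only, 3.73 with bins ranked after thinning to 500 counts and 4.70 with equal weight per bin.

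A bin with more counts is more likely to show a gene, so each bin was also thinned to 500 counts. At that equal depth the macrophage genes outside the ranking were found in 66 of 89 bins (74.2%) and 238 of 956 others (24.9%), against 94.4% and 71.9% before thinning. For MHC class II the shares were 33.7% and 11.2%. No bin was too shallow to be thinned.

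MHC class I, which presents peptides on nearly all cells, was higher to a lesser degree. Its list stood at 2.57 (2.38 to 2.77), and 7 of 9 measured genes passed 1.5-fold upwards and none downwards. H2-D1 stood at 3.99 (3.49 to 4.55), H2-T23 at 3.11 (2.08 to 4.53) and the light chain gene B2m at 2.51 (2.15 to 2.92). Psmb8, a subunit of the immunoproteasome, stood at 2.53, while Tapbp, the tapasin that edits peptides, stood at 1.01 (0.472 to 1.90). Class I genes are near copies of each other, and how reads between them were counted is not given in the sources used here.

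Lysosome genes were higher in part. The list reached 6785 against 3375 CPM (ratio 2.01, 1.91 to 2.11), and 17 of its 25 measured genes passed 1.5-fold upwards and none downwards, with a median of 1.80. With 50 counts required in the other bins alone, 16 of 24 passed upwards. Atp6v0d2, a proton pump subunit of macrophages and osteoclasts, stood far above the rest at 16.5 (12 to 22.9) on 87 and 74 counts. It was counted in 34 of the 89 bins and in 57 of the 956 others. The aspartic protease gene Ctsd stood at 4.58 (3.92 to 5.34) and Ctsc, cathepsin C, at 3.97 (2.35 to 6.44). At the other end, Ctsl, cathepsin L, stood at 0.793 (0.662 to 0.942), the ceramidase gene Asah1 at 0.895 and the cholesterol exporter gene Npc1 at 1.12, the last 2 with intervals that span 1. The list as a whole did not move as one.

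Genes of lipid-laden macrophages were higher too, at 9436 against 2056 CPM (4.59, 4.39 to 4.80). Of 11 measured genes 10 were at least 1.5-fold higher, with a median of 2.69. With 50 counts required in the other bins alone, which leaves out Gpnmb, 9 of 10 were. Gpnmb, a glycoprotein of macrophages filled with debris or lipid, had the highest ratio at 20.9 (12.7 to 34.7), on 43 counts in the macrophage-rich bins and 29 in the others. Apoe, the lipid carrier that macrophages secrete, stood at 5402 against 694 CPM (7.78, 7.30 to 8.29). It was counted in 82 of 89 bins, with a median of 8 and a maximum of 115, and in 733 of 956 others with a median of 2 and a maximum of 31. Lgals3, galectin-3, stood at 6.99 (6.27 to 7.78) and the sterol exporter gene Abcg1 at 6.23. The tetraspanin gene Cd9 stood at 1.98 and the lipid droplet coat gene Plin2 at 1.68. Soat1, which esterifies cholesterol and which steroid-forming cells also use, stood at 0.931 (0.777 to 1.11), and Spp1, osteopontin, had 4 and 22 counts.

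Receptors and bridging proteins for the uptake of dead cells gave a mixed result. The efferocytosis list stood at 1.24 (1.16 to 1.32), with 4 of 15 measured genes at least 1.5-fold higher and 2 lower. Over all genes measured, 11% were higher and 22.2% lower. Besides Stab1 and Mertk, the fatty acid and apoptotic cell receptor gene Cd36 stood at 2.69 (2.19 to 3.27). Lrp1 stood at 0.698 (0.493 to 0.963), Elmo1 at 0.570 (0.206 to 1.27), and the TAM receptor gene Tyro3 had 0 counts against 84.

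The galectin and S100 list, of small proteins of motile and inflamed cells, stood at 2.49 (2.36 to 2.62), with 6 of 11 measured genes higher and none lower. With 50 counts required in the other bins alone, which leaves out S100a4, 5 of 10 were higher. Tmsb4x, an actin-binding thymosin, stood at 2.54 (2.35 to 2.75), Anxa1 at 2.83 (2.01 to 3.89) and S100a4 at 3.43 (1.53 to 6.97) on 10 and 41 counts. S100a11 and Tmsb10 stood at 1.04 and 0.872. Iron handling genes reached 2.05 (1.95 to 2.16), with 5 of 9 higher. The ferritin genes Ftl1 and Fth1 stood at 2.41 (2.24 to 2.60) and 1.87 (1.74 to 2.01), the biliverdin reductase gene Blvrb at 2.61 (1.56 to 4.19) and the iron exporter gene Slc40a1 at 1.89 (1.09 to 3.10).

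The list of complement genes other than C1q stood at 1.48 (1.43 to 1.54), with 7 of its 11 measured genes higher and none lower. Masp1 and Mbl2, complement genes outside the list, were much lower, at 0.0508 and 0.121. C3, the central component, stood at 4.24 (2.60 to 6.70), the stabilising factor gene Cfp at 3.88 (2.08 to 6.84) and C2 at 2.85 (1.83 to 4.31). The chemokine list stood at 2.26 (1.90 to 2.67). In it Cxcl16 stood at 3.09 (1.32 to 6.45), Cxcl12 at 2.77 (1.36 to 5.19) and Cxcl14 at 1.77 (1.40 to 2.21). Cxcl16, on 9 and 41 counts, reached the minimum of 50 only with those in the macrophage-rich bins. The cytokine list did not differ detectably at 1.08 (0.856 to 1.35) on 85 counts. Of these, 62 were Igf1, at 1.16 (0.877 to 1.50), so the sum says little of the other genes. Il1b, Il6 and Tnf had 0 counts in both sets of bins and could not be compared.

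In the interferon list 8 of 14 measured genes were higher and 1 lower, and its sum stood at 1.34 (1.21 to 1.47). The higher genes included the myeloid transcription factor gene Irf8 at 3.99 (2.18 to 6.92), Irf1 at 2.59 (1.35 to 4.62) and the RNA sensor gene Ifih1 at 2.28 (1.13 to 4.23). The most abundant, Ifitm2 and Ifi27, stood at 1.04 and 1.23 with intervals that span 1, and Irf9 at 0.541 (0.109 to 1.64). The NF-kB and inflammasome list stood at 1.47 (1.2 to 1.78), and 2 of its 8 measured genes were higher. Casp1, the protease that matures interleukin-1 beta, stood at 5.51 (3.00 to 9.68) and Gsdmd, its pore-forming substrate, at 1.53 (0.833 to 2.61). Casp1, on 18 and 46 counts, passed the minimum only with its counts in the macrophage-rich bins. With 50 counts required in the other bins alone, 1 of 7 genes was higher, near the 10.2% of all genes under that minimum. Nfkbia stood at 1.30 and Nfkb1 at 1.12, with intervals that span 1.

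Genes of other cell types were read in the same bins. The list of T, NK and innate lymphoid cells stood at 2.70 (1.98 to 3.61) on 55 counts. Of these, 27 were Rora, a nuclear receptor gene that other cells also express, at 2.00 (1.28 to 3.00). The T cell receptor complex genes were near 0. Cd3d had 1 count against 1, Cd3e 1 against 1, Cd3g 1 against 2 and Trac 2 against 0. Trbc1 had 0 against 2 and Trbc2 0 against 4. Il7r had 7 and 8 counts and Cd4 4 and 7, while Cd7 had 0 and 30. Of the 22 genes with any count 13 stood at least 1.5-fold higher and 8 lower. Single counts could pass that size, as for Nkg7 on 1 and 3 counts at 4.69 (0.0893 to 58.4). No share over all such genes was taken, so this tally says little about the list. The neutrophil list had 0 counts in the macrophage-rich bins, which allows up to 3, and 7 in the others. The B and plasma cell list stood at 0.814 (0.498 to 1.26), the dendritic list at 1.18 (0.744 to 1.79) and the mast cell list at 1.37 (0.749 to 2.33). In each list 1 gene that other cells also express was the most abundant. Xbp1 with 15 and 320 counts and Kit with 11 and 147 gave most counts of the B and plasma and the mast cell list. In the dendritic list Fscn1 gave 181 of 286 counts in the other bins but only 6 of 24 in the macrophage-rich bins. Leaving out the most abundant gene of each list was an alternative chosen after the data were seen. The dendritic list then stood at 2.41 (1.38 to 4.0) on 18 and 105 counts and the mast cell list at 8.04 (1.73 to 31.6) on 4 and 7. The B and plasma cell list then stood at 1.96 (0.683 to 4.63) on 6 and 43. Itgax, the integrin CD11c of dendritic cells and some macrophages, had 3 and 4 counts (10.6, 1.55 to 62.4). The remaining counts of the mast and plasma cell genes were thus few, and those of the dendritic list were higher in the macrophage-rich bins. The part of other leukocytes in the results above was not tested beyond these counts.

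**Figure D3:**
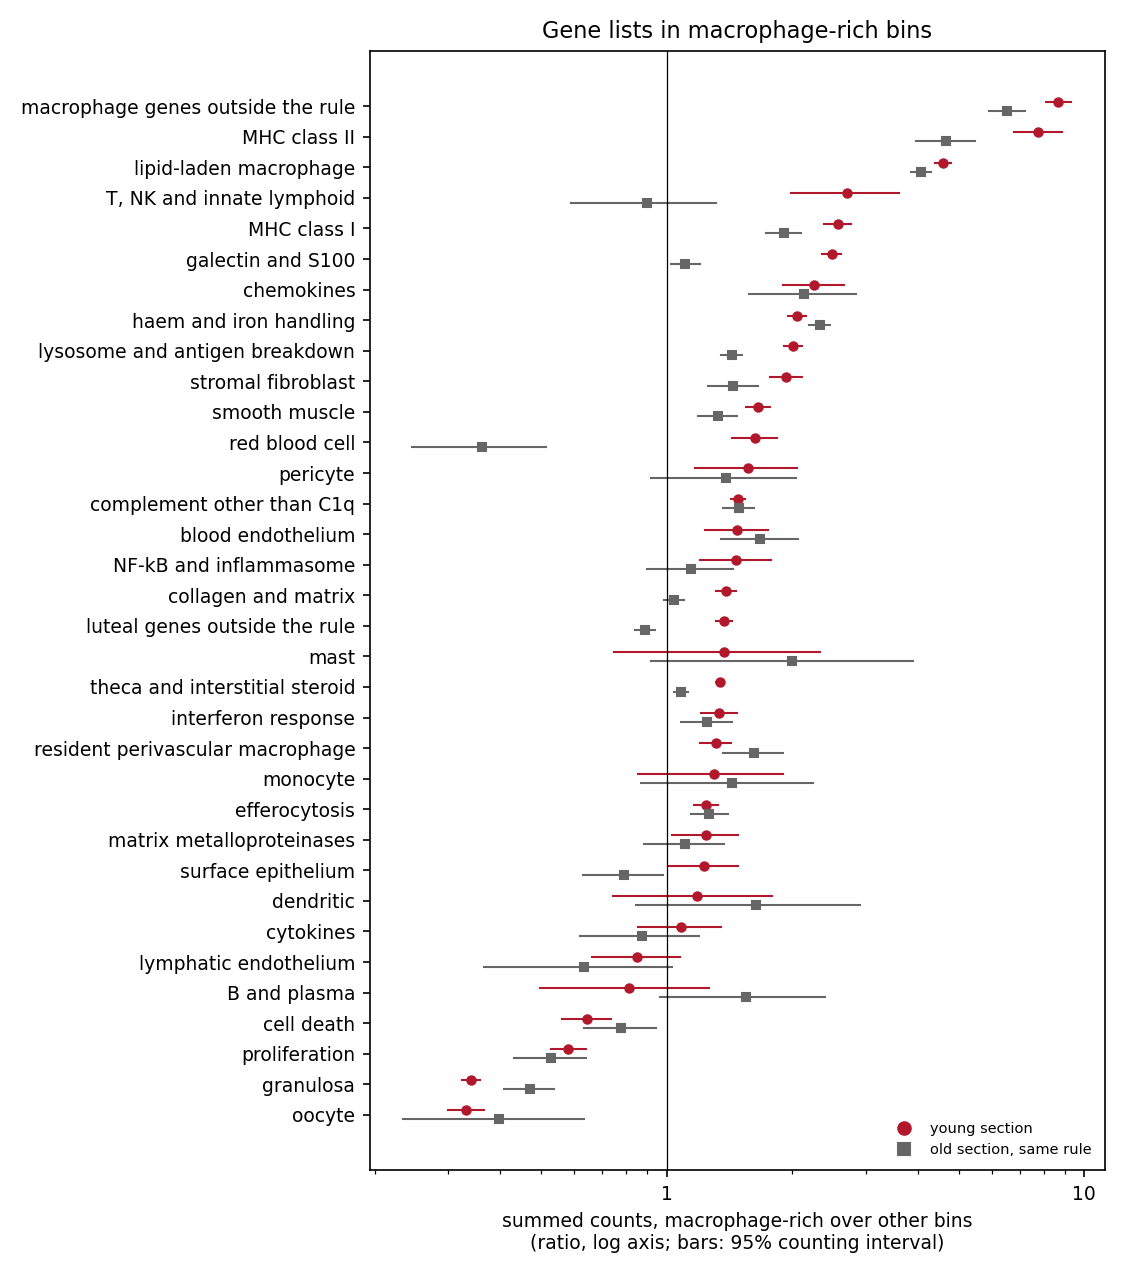
Ratio of summed counts for each gene list, macrophage-rich over other non-luteal bins, on a log axis (bars, 95% counting intervals), for the young section (red circles) and the old section under the same rule (grey squares). Macrophage, MHC class II and lipid-laden lists lie far right in both sections, granulosa and oocyte lists far left, and the red blood cell list lies on opposite sides of 1.

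Connective tissue and vessel genes were higher as well. The stromal fibroblast list stood at 1.93 (1.77 to 2.10), with 6 of 10 measured genes higher and none lower, led by the proteoglycan genes Dcn at 2.99 (2.51 to 3.55) and Lum at 2.66 (1.92 to 3.62). The smooth muscle list stood at 1.65 (1.55 to 1.77), with 9 of 12 higher, and Tagln, transgelin, at 2.31 (1.79 to 2.93). The blood endothelium list stood at 1.48 (1.24 to 1.75), with 5 of 10 higher, such as the VE-cadherin gene Cdh5 at 1.92 (1.06 to 3.26). The pericyte list stood at 1.56 (1.17 to 2.05) and its marker Rgs5 at 1.94 (1.32 to 2.77). The collagen and matrix list stood at 1.39 (1.31 to 1.46), with 7 of 21 genes higher, such as tenascin C (Tnc) at 2.14 (1.71 to 2.65), and 2 lower, such as Col18a1 at 0.207 (0.0248 to 0.762). Col1a2, the most abundant of the list, stood at 1.23 (1.10 to 1.37), short of 1.5-fold. The matrix metalloproteinase list stood at 1.24 (1.03 to 1.48) and the lymphatic list at 0.850 (0.663 to 1.08). The comparison bins were richer in granulosa counts, at 17348 CPM against 5891 in the macrophage-rich bins. A contrast with the 50% of comparison bins lowest in granulosa share was added after the data were seen. By it fibroblast genes stood at 1.30, smooth muscle at 1.17 and blood endothelium at 0.895, while the macrophage genes outside the ranking stood at 5.55.

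Steroid-forming cells differed less. The theca and interstitial list, of which Hsd3b1 and Aldh1a1 gave most counts, stood at 1.34 (1.31 to 1.37), with 2 of 11 genes at least 1.5-fold higher, Cyp11a1, which makes pregnenolone, at 1.53 (1.45 to 1.62) and Aldh1a1 just past that size at 1.50. The 3 luteal genes of the rule summed to 2.19 (1.90 to 2.52) in these non-luteal bins, a value that the setting aside of luteal bins bears on. Luteal genes outside the rule stood at 1.37 (1.31 to 1.44), with 1 of 8 higher. Over all genes measured, 11% were higher. Against the 50% of bins lowest in granulosa share, the theca and interstitial list stood at 0.887 and the luteal genes outside the rule at 0.842, so their direction turned with the bins compared.

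Genes of growing follicles were much lower. The granulosa list stood at 5891 against 17348 CPM (0.340, 0.323 to 0.357), and 14 of 16 measured genes were at least 1.5-fold lower, with none higher. Inhba and Inhbb, the subunits of activins, stood at 0.0868 (0.0655 to 0.113) and 0.0912 (0.0530 to 0.146). Aromatase, Cyp19a1, had 3 counts against 419. The oocyte list stood at 0.331 (0.30 to 0.366), with 18 of 24 lower and 1 higher, and Nlrp14 at 0.264 and the zona protein gene Zp2 at 0.219. Proliferation genes stood at 0.582 (0.528 to 0.640), with 15 of 25 lower and none higher, such as the replicative helicase gene Mcm2 at 0.552 (0.428 to 0.703) and the mitotic gene Cenpf at 0.354 (0.246 to 0.495). The cell death list stood at 0.644 (0.562 to 0.735), but 1 of 13 measured genes was lower, against 22.2% of all genes measured. It was Foxo1, a granulosa-rich transcription factor gene, at 0.252 (0.181 to 0.341). Bax, the mitochondrial executioner gene, stood at 0.902 (0.657 to 1.21).

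Over all genes with at least 200 counts, 14 of the 15 highest ratios belonged to the lists above. In descending order from 16.1 to 3.20 they included Lyz2, Ctss, H2-Ab1, Apoe, Cd74, Lgals3, Abcg1, Ctsd, Lcp1, H2-D1, Pqlc3, Lgmn, Psap and Ctsb. The lysosomal enzyme genes Lgmn and Ctsb stood at 3.27 and 3.20, and Psap, which makes the saposins, at 3.24. Pqlc3, at 3.33 (2.31 to 4.71), was in no list. The 12 lowest were Masp1, Car14, Nnat, Inhba, Inhbb, Vcan, Cyp19a1, Dsp, Mbl2, Slc26a7, Emx2 and Fam13a. Masp1, a protease of the lectin pathway of complement, had 1 count in the macrophage-rich bins and 277 in the others (0.0508, 0.00128 to 0.285), and Mbl2, the lectin of the same pathway, 2 and 232 (0.121, 0.0146 to 0.443). Vcan, the versican of the follicle matrix, had 6 and 850.

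The macrophage-rich bins were unevenly spread over the section. By the 8 neighbours of each bin, they formed 39 groups, of which 23 were single bins, 7 were pairs, 5 had 3 bins and 4 had at least 4. Of the non-luteal neighbours of a macrophage-rich bin 24.9% were macrophage-rich too, against 6.79% of the neighbours of other bins. Patch 1, the largest group, had 22 bins within a rectangle of 8 by 7 bins and gave 39.2% of the ranking counts from 24.7% of the bins. It gave 59.5% of the Lyz2 counts and 33.4% of the MHC class II counts. Its 2 richest bins held 30 and 29 ranking counts. The first had 31 counts of Lyz2, 40 of Ctss and 80 of Apoe, and the second 49, 54 and 91. Patch 2 had 7 bins and gave 13.3% of the ranking counts but 38.9% of the MHC class II counts. Patches 3 and 4 had 4 bins each, and 52 bins (58.4%) lay in groups of 3 or fewer, called scattered here.

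Patches differed in kind as well as in size. The macrophage genes outside the ranking stood 14.3 times above the other non-luteal bins in patch 1, 13.8 times in patch 2, 11.8 times in patch 3, 3.01 times in patch 4 and 3.63 times in the scattered bins. MHC class II was 22.9 times higher in patch 2 (18.9 to 27.6), 8.43 times in patch 1 (6.86 to 10.3) and 4.18 times in the scattered bins (3.33 to 5.21). Patches 3 and 4 had 4 and 1 such counts, at 1.67 (0.453 to 4.29) and 1.07 (0.0270 to 5.96). In patch 3 H2-Ab1 had 0 counts, with an interval up to 6.55. For MHC class II these 2 patches were too sparse to place. Set directly against patch 2, patch 1 had less Cd74 (ratio 0.338, 0.223 to 0.508), H2-Ab1 (0.352, 0.206 to 0.599) and Apoe (0.522, 0.462 to 0.590), and more Lyz2 (1.59, 1.19 to 2.15) and Ctsd (1.83, 1.21 to 2.88). Ctss and Lgals3 did not differ detectably between them, at 0.878 (0.686 to 1.13) and 0.956 (0.758 to 1.21). Gpnmb gave 30 of its 43 counts in patch 1, 47.4 times (27.5 to 81.8) the level of the other bins, 7 counts in patch 2 and 5 in the scattered bins. Lpl, lipoprotein lipase, stood at 9.34 (4.55 to 17.3) in patch 2 and 1.45 (0.390 to 3.81) in patch 1.

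Genes of other cells within the patch bins, and the places of the patches, were unlike too. Aldh1a1, the retinaldehyde dehydrogenase of interstitial cells in this section, stood at 12526 CPM in patch 1 and 4696 in patch 2, a ratio of 2.67 (2.27 to 3.15). The fibrillar collagen genes Col1a2 and Col3a1 stood at 0.306 (0.218 to 0.428) and 0.441 (0.265 to 0.734) in patch 1 over patch 2. Of the 22 bins of patch 1, 2 adjoined a luteal bin and 5 lay next to a bin rich in oocyte counts. Of the 7 bins of patch 2, 6 adjoined luteal tissue and 5 a bin rich in oocyte counts. Among the scattered bins 27 of 52 (51.9%) adjoined luteal tissue and 2 an oocyte-rich bin. The patches are single places in 1 section and were picked out from these same counts, so the contrasts describe those places.

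**Figure D4:**
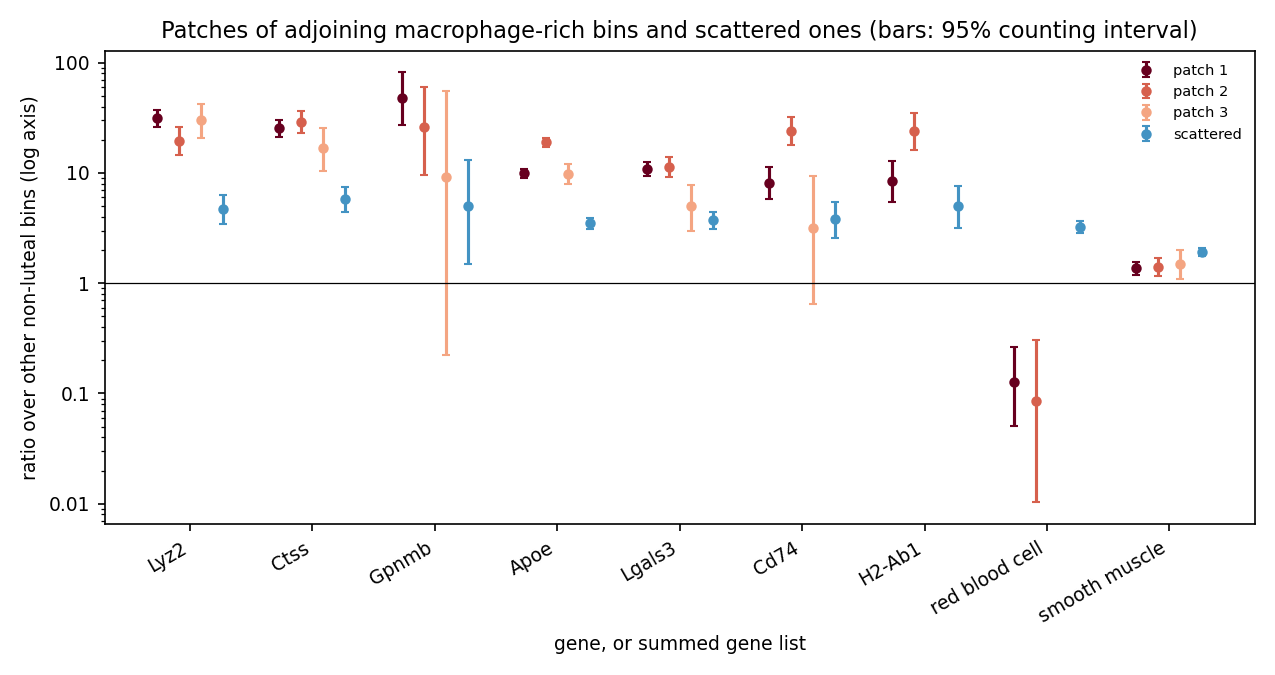
Ratio over other non-luteal bins on a log axis for 7 genes and 2 summed lists in patches 1 to 3 and in the scattered macrophage-rich bins (bars, 95% counting intervals). Cd74 and H2-Ab1 are highest in patch 2, Lyz2 and Ctss are lowest in the scattered bins, and the red blood cell list is above 1 only in the scattered bins among the groups drawn. Values of 0, as for H2-Ab1 and the red blood cell list in patch 3, are not drawn.

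Outside patches 1 and 2, the remaining 60 bins kept a smaller difference. The macrophage genes outside the ranking stood at 4.38 there, MHC class II at 3.83, the lipid-laden list at 2.63, Lyz2 at 7.06 and Apoe at 4.02. Not every macrophage gene kept a clear difference. Mpeg1 stood at 1.84 (0.580 to 4.52) on 5 counts and Cd68 at 2.79 (0.720 to 7.77) on 4, with intervals that span 1. Red blood cell genes ran the other way. The list, made up almost wholly of haemoglobin genes that are close copies of each other, stood at 1.63 (1.44 to 1.84) over all 89 bins, but 280 of its 291 counts were in scattered bins and 2 bins held 57.0% of them. It stood at 0.127 in patch 1 and 0.0850 in patch 2. With at least 4 ranking counts required of a bin, the ratio was 0.329, so its direction rested on the choice of bins.

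Levels fell with distance from the macrophage-rich bins, and for the tissue genes the fall was shallow. The macrophage genes outside the ranking stood at 4479 CPM in the macrophage-rich bins, 947 in the 282 bins that adjoined one, 566 in the 234 bins at a distance of 2 and 290.0 in the 440 bins farther away. MHC class II stood at 1257, 321, 138 and 98.3 CPM, and Lyz2 at 1347, 200.2, 76.5 and 31.8. Smooth muscle genes stood at 3470, 2985, 2177 and 1640 CPM and fibroblast genes at 2184, 1677, 1209 and 834. Granulosa genes stood at 5891, 7692, 11518 and 24661 CPM. The largest step for the macrophage lists lay between the macrophage-rich bins and their neighbours, and for granulosa genes between bins at a distance of 2 and those beyond.

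**Figure D5:**
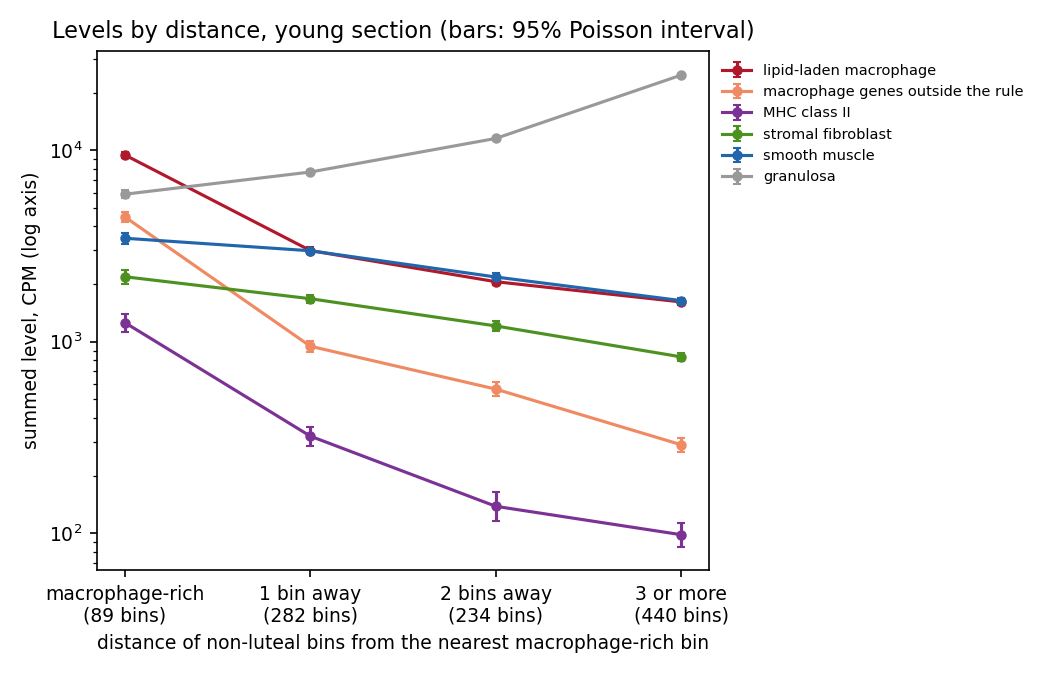
Summed level in CPM (log axis) of 6 gene lists in macrophage-rich bins and in non-luteal bins 1, 2 and 3 or more bins away (bars, 95% Poisson intervals). The macrophage list outside the ranking falls from 4479 to 290.0 CPM, smooth muscle from 3470 to 1640, and granulosa rises from 5891 to 24661.

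Compared only with the 282 adjoining bins, the macrophage genes outside the ranking stood at 4.73, MHC class II at 3.91, the lipid-laden list at 3.15, lysosome genes at 1.84 and MHC class I at 1.90. Against these neighbours the fibroblast list stood at 1.30, smooth muscle at 1.16, blood endothelium at 0.967, theca and interstitial genes at 1.02, proliferation at 0.857 and granulosa at 0.766. Inhba, at 0.0868 against all other bins, stood at 0.918. The number of genes at least 1.5-fold higher was 288 in place of 1060, and at least 1.5-fold lower 571 in place of 2135.

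By place, 39 macrophage-rich bins (43.8%) adjoined luteal tissue, against 254 of the other bins (26.6%). Since the rule set luteal bins aside by rank, this distance is not independent of it. Shares within 1 bin of an oocyte-rich bin were 18.0% and 20.3%. The second share includes the 62 other bins that were themselves rich in oocyte counts, while no macrophage-rich bin was. The 2 shares therefore do not compare bins next to an oocyte-rich bin alone. Shares at the edge of the section were 16.9% and 16.4%. The quadrant of high x and high y held 41 of the macrophage-rich bins, that of high x and low y 25, low x and high y 14, and low x and low y 9.

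Within the 89 bins, the beads that carried the ranking genes were looked at apart. Of 1301 beads, 332 (25.5%) had at least 1 ranking count, at a median of 262.5 counts per bead, and 969 had none, at a median of 122. Of the 332 beads 89 (26.8%) carried 2 or more of the 6 genes, up to 5. The macrophage genes outside the ranking stood at 7786 CPM on beads with a ranking count and 2266 on beads without, a ratio of 3.44 (3.04 to 3.89), while other non-luteal bins stood at 516. MHC class II had a ratio of 3.49 (2.76 to 4.43) between the bead sets, Ctss 4.54, Lyz2 4.0, Apoe 2.92 and the lipid-laden list 2.57. Cd68 had 15 counts on beads with a ranking count and 2 on the others.

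Other gene groups did not share those beads to the same degree. Fibroblast genes had a ratio of 0.853 (0.720 to 1.01) between beads with and without a ranking count, smooth muscle genes 0.916 (0.802 to 1.04), blood endothelium 0.794 (0.554 to 1.13), complement other than C1q 1.05 and granulosa genes 0.949. Red blood cell genes stood at 0.159 (0.104 to 0.235). In these bins, counts of macrophage, MHC class II and lipid genes therefore lay more on the beads of the ranking genes, and counts of stroma and muscle genes did not. Beads with more counts are more likely to carry a ranking count, and beads are not replicates.

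In the old section the same rule took 68 of 707 non-luteal bins, with 118910 counts. A bin there spanned 7.08 bead spacings, and 13.8% of 6987 measured genes were at least 1.5-fold higher and 25.7% lower, at a median of 0.937. The macrophage genes outside the ranking stood at 6.52 against 8.67 in the young section, MHC class II at 4.67 against 7.76, and the lipid-laden list at 4.06 against 4.59. Of the 15 genes with the highest ratios in the young section, 14 were above 1.5 in the old section, among them Apoe at 9.71 and Abcg1 at 10.7. Psap was the exception at 0.973 (0.808 to 1.16) against 3.24. The galectin and S100 list stood at 1.11 against 2.49 and collagen at 1.04 against 1.39. Granulosa genes stood at 0.470 and oocyte genes at 0.398. These values stand side by side for 1 section of each age, and their difference was not tested.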

How the data were processed

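Each deposited table holds whole-number counts, with genes in rows and beads in columns, and a second table gives bead positions. The genome build was mm10 per the submitters' processing notes. Not given in the sources used here are the aligner, counter, annotation and use of strand, and whether the authors counted molecules or reads. The tables hold beads with at least 10 counts. Depth was 5158314 counts on 21403 beads in the young section and 2348768 on 10267 in the old.

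Counts were summed over the macrophage-rich bins and over the other non-luteal bins and divided by each set's total (CPM), and the ratio of the 2 was taken, with its 95% interval from the exact binomial (Clopper-Pearson) method given the sum. CPM carry exact Poisson intervals. Intervals cover counting error only. Higher or lower means 1.5-fold, without a test, among genes with at least 50 counts over the non-luteal bins, leaving out the 6 ranking and 3 luteal genes of the rule. Beside the rule genes, 36 lists were used. The bins, the lists and the genes named were chosen with earlier results of these data known. Named were all macrophage genes outside the ranking, of each other list the 2 most abundant measured genes and up to 3 at either end of the ratios, list genes under 50 counts by their counts, and the 15 highest and 12 lowest ratios among genes with at least 200 counts. The last left out mitochondrial genes, ribosomal protein genes and those with predicted or clone names. Genes named beyond this for the patches (Col1a2, Col3a1, Aldh1a1, Lpl) were chosen after their values were seen. Some genes that the rule names are not reported here.

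Bins rich in oocyte counts had at least 10 counts of the oocyte list that made up at least 1%. Patches were groups of at least 4 adjoining bins. Of 21091 gene names in the young section, 18061 matched RefSeq on GRCm38.p6. No doublet caller was run. The calculation of ratios was tested on simulated data. Alternatives were other bin sizes, depths, shares, ranking genes, totals, weights, comparison bins and count minimums, lists without their most abundant gene, and leaving out each quadrant. Python 3.11.15, numpy 2.4.6, scipy 1.17.1, pandas 2.3.3 and matplotlib 3.10.9 were used.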

Additional observations from a re-analysis of the deposited data

Results flagged for a closer look

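For 3 gene lists the ratio of macrophage-rich over other non-luteal bins lay on opposite sides of 1 in the young and the old section, with both counting intervals off 1. The red blood cell list stood at 1.63 (1.44 to 1.84) in the young and 0.362 (0.246 to 0.513) in the old section. In the young section 84.5% of its counts in macrophage-rich bins came from 10 bins. Luteal genes outside the rule stood at 1.37 (1.31 to 1.44) and 0.887 (0.838 to 0.938), and without Cyp11a1, the most abundant of them, at 1.07 (0.985 to 1.17) and 0.719 (0.653 to 0.790), so that the young interval then spans 1. Surface epithelium genes stood at 1.23 (1.01 to 1.48) and 0.789 (0.629 to 0.978), and of the 7 such genes measured in the young section 3 were at least 1.5-fold higher and 4 lower. Its side of 1 in the young section rested on Aldh1a2, which gave 82 of the 117 counts in macrophage-rich bins and 611 in the others. Without Aldh1a2 the list stood at 0.675 (0.466 to 0.947) in the young section and 0.655 (0.491 to 0.859) in the old section, on the same side of 1. These differences were not tested, since each age had 1 library.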

How the results depend on the processing

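No paired analysis was possible because each age had 1 library and the comparison lies within 1 section. Values below are the count of genes higher, the count lower, the ratio of macrophage genes outside the ranking and that of MHC class II, against 1060, 2135, 8.67 and 7.76, where they moved beyond their interval or by over 1.5 times. Compared with adjoining bins only they were 288, 571, 4.73 and 3.91. Ranked in bins thinned to 500 counts they were 1655 higher, 7.02 and 3.73. With equal weight per bin the ratios were 5.93 and 4.70, with bins of 100 units 6.93 and 6.17, and with the top 20% taken 6.35 and 5.97. With the top 5% taken the macrophage ratio was 10.8, with at least 4 ranking counts 9.31, with 10% or 30% set aside as luteal 7.69 or 9.75, and ranked by C1q genes 7.77. Ranked by Csf1r, Tyrobp and Ms4a7, MHC class II stood at 6.55. Counting genes with at least 20 counts gave 1722 higher, and with at least 200 counts 306 higher and 749 lower. Leaving out the quadrant of high x and high y gave 13.7 and 13.9, that of low x and high y 5.06 and 3.40, and for the macrophage genes high x and low y 9.54 and low x and low y 8.01.

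Added after seeing the data were leaving out patch 1 (macrophage genes 6.17), patches 1 and 2 (4.38 and 3.83), and comparing with the 50% of bins lowest in granulosa share (512, 992, 5.55 and 4.91). Without its most abundant gene, Ctss, the list of macrophage genes stood at 7.22. Against bins low in granulosa genes the cell death list stood at 1.04. The red blood cell list reversed to 0.916 in bins of 100 units, 0.619 with the top 5%, 0.329 with at least 4 ranking counts, 0.881 ranked by Csf1r, Tyrobp and Ms4a7, 0.928 against adjoining bins and 0.995 against bins low in granulosa genes. The causes were not tested. For the 27 named genes, 431 of 591 values stayed within their interval and none reversed. For the other 34 lists 554 of 781 did. Depth limits sparse genes most, since 45 of 89 bins were chosen on 2 to 4 counts.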
